A study of Mus musculus with 60 samples.

Results

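YAP and TEAD pathway genes are the last step of the Hippo pathway, and 10 of them were followed here: the co-activator genes Yap1 and Wwtr1, the DNA-binding partners Tead1, Tead2, Tead3 and Tead4, and the target genes Ctgf, Cyr61, Ankrd1 and Amotl2. They were taken by symbol, as named in the 2 deposited expression tables, and not by a cut on any measured value. Earlier results of these data were known when they were chosen. All 10 were found in both tables, among 19355 gene symbols in the culture table and 17473 in the liver table. In the pathway, a chain of kinases (Mst and then Lats) phosphorylates YAP and TAZ, the protein of Wwtr1, and keeps them out of the nucleus. Unphosphorylated YAP and TAZ enter the nucleus and, since neither binds DNA alone, act through TEAD proteins. The pathway is known in the liver for its part in organ size and in the turn of hepatocytes towards progenitor-like cells. It answers to cell density, matrix stiffness and cell shape, all of which change when a hepatocyte leaves the liver for a dish. These tables hold mRNA levels, so phosphorylation, protein level and position in the cell were not measured.

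The labels give every sample as WT and C57BL/6 mouse cells or liver (C57BL/6J in the study's methods), sequenced as polyA RNA. The study also describes single-cell clones, clone-1 among them, from hepatocytes of mice that carry Albumin-Cre and a tdTomato reporter, so the clone-1 samples may carry both transgenes although their label is WT. In culture, freshly isolated Hepatocytes were compared with hepatocytes grown on gelatin in a medium with IL6, EGF, HGF and dexamethasone. These are the IL6-iHPCs, for IL6-induced hepatic progenitor cells. They were sampled without passage at day 3 and day 14, as IL6-iHPCs-D3 (P0) and IL6-iHPCs-D14 (P0), and after passaging, as 3 lines: mouse-1 at passages 10 and 35, written mouse-1 (P10) and mouse-1 (P35), mouse-2 (P10), and clone-1 (P20), a line grown from a single hepatocyte. These make 4 passaged cultures, and a mean over the 4 counts mouse-1 at both passages. The same 4 cultures were also sampled after a maturation step in a medium with dexamethasone and oncostatin M, as IL6-iMHs. In vivo, Normal liver was set beside regenerating liver of adult mice at 6 h (PHX-6h), 24 h (PHX-24h), day 3 (PHX-D3), day 7 (PHX-D7) and day 14 (PHX-D14) after a 2/3 partial hepatectomy. Each of the 11 culture groups and 6 liver groups had 3 libraries, 33 and 18 in all. The culture libraries of a group were technical repeats by the study's account, and the labels do not say whether liver libraries came from separate mice, so p-values here measure the spread between libraries.

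Levels are given in FPKM, fragments per kilobase of transcript scaled to the size of the library, which corrects for length and so lets genes be compared. Differences are given on a log2(FPKM + 1) scale with their standard error (SE), which understates the change of genes near 0. A gene was called higher or lower (rose or fell) when the adjusted p of limma, fitted over all groups of a table, was under 0.05 and the difference was at least 2-fold. Genes with at least 1 FPKM in 3 or more libraries were tested, 12328 in culture and 11114 in liver. All 10 members passed this filter in culture. Tead1, Tead2, Tead4, Ctgf and Ankrd1 did so only through cultured libraries, as each was under 1 FPKM in every Hepatocyte library. Against Hepatocytes their direction was thus largely fixed by the filter. Their calls, and member counts and medians that include them, are no independent support for a rise over Hepatocytes. In liver 7 passed, and Tead2, Tead4 and Ankrd1 did not. The whole distribution moved between Hepatocytes and the cultured cells: the median difference of all tested genes was 1.14 in IL6-iHPCs-D3, 1.00 in IL6-iHPCs-D14 and 0.93 in the passaged IL6-iHPCs. Each member's difference is therefore read against that median. Calls were also made after quantile normalization and on reads recovered from the FPKM steps (voom), and changes that bear on a comparison are given beside it.

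Several libraries need mention before the results. Reads over 4 Y-linked genes were 6575 to 9095 per library in IL6-iHPCs-clone-1 and 0 in IL6-iMHs-clone-1, so the libraries labelled clone-1 differed in Y-linked reads before and after maturation. Hepatocytes (994 to 1550 reads), IL6-iHPCs-D3 (13066 to 18444) and IL6-iHPCs-D14 (9185 to 10803) had such reads. The other 3 passaged IL6-iHPC cultures had 0 to 2 and all IL6-iMHs had 0. Y-linked reads thus differed between Hepatocytes and every cultured group. In comparisons with Hepatocytes, a change in culture and a difference between sources of cells therefore cannot be told apart. Every liver group had Y-linked reads, with 7484 to 10652 in Normal liver, 11123 to 16272 in PHX-6h and 2673 to 3690 in PHX-D14. At PHX-D14, a change with time and a difference between animals therefore cannot be told apart. Counts over the 4 passaged cultures are given with and without clone-1. In liver, PHX-D3 replicate 2 correlated with its group at r = 0.902 and 0.882, against 0.974 to 0.997 for all other pairs of one group. The labelled tissue or cell type was borne out by its markers in both tables: each of 10 hepatocyte markers was at 1 FPKM or more in the Hepatocytes and in every liver group, summing to 79971 to 85782 FPKM in Hepatocytes and 666 to 785 FPKM in IL6-iHPCs-D3. In IL6-iMHs-clone-1 the sum was 65015 to 68923 FPKM, but Cyp2e1 was under 0.1 FPKM. Library depth was 49291025 to 88832936 reads on genes in culture and 52039495 to 79221009 in liver.

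The 10 genes lie apart in the mm10 genome (GRCm38), apart from sharing chromosomes. Yap1 (chr9:7931999-8004596, minus strand) and Amotl2 (chr9:102716672-102733418, plus strand) are on chromosome 9. Wwtr1 (chr3:57455649-57575910) and Cyr61 (chr3:145646976-145649981) are both on the minus strand of chromosome 3. Tead1 (chr7:112679318-112906807) and Tead2 (chr7:45215753-45233644) are on the plus strand of chromosome 7. Tead3 (chr17:28331671-28350817), Tead4 (chr6:128224288-128300823) and Ankrd1 (chr19:36111961-36120099) are on minus strands, and Ctgf (chr10:24595442-24598683) is on a plus strand. The current names of Ctgf and Cyr61 are Ccn2 and Ccn1. Parts of Yap1, Wwtr1, Tead1, Tead2, Tead4 and Ctgf overlap annotated genes on the opposite strand (Gm20416, Gm16016, 2310014F06Rik, Cd37, Gm21893 and Gm15270), whose reads cannot be told apart from theirs unless strand was used in counting, which is not given in the sources used here.

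TEAD proteins recognise the core GGAATG, whose reverse complement is CATTCC, and the promoters were searched for both. RefSeq (GRCm38.p6) promoter windows of 250 bases before a start site were at hand for 7 of the 10 genes, 10 windows in all, and not for Ctgf, Tead1 and Tead4. At least 1 match was found in 6 of the 7 genes and in 8 of the 10 windows, against 12.6% of 32851 windows and 14.4% of 27025 genes of the mouse table. Tead2 was the gene without a match. The Wwtr1 windows overlap and hold the same core, and Tead3 windows overlap in part, so the windows were not independent. The members include genes listed as targets of the pathway, and the contrast was not tested. The 3 windows that hold a core and touch no annotated exon of these 10 genes are shown whole. Exons of other genes were not searched. The windows run 5′ to 3′ on the strand of the gene, with the core in capitals. They were chosen because they place a TEAD core beside both co-activator genes and beside a target gene. The cores lie 141 bases (Yap1, chr9:8004597-8004846, minus strand), 136 bases (Wwtr1, chr3:57575911-57576160, minus strand) and 103 bases (Cyr61, chr3:145649986-145650235, minus strand) before the start site.
Yap1: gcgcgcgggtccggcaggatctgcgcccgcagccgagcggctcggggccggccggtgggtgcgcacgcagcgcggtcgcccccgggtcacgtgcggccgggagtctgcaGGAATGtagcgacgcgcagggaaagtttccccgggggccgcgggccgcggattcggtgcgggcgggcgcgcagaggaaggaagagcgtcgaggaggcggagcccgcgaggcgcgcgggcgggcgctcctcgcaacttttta
Wwtr1: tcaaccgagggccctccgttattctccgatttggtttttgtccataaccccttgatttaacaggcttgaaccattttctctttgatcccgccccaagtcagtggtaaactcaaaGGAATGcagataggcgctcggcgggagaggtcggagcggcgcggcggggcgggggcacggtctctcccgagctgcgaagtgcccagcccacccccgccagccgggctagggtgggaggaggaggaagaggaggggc
Cyr61: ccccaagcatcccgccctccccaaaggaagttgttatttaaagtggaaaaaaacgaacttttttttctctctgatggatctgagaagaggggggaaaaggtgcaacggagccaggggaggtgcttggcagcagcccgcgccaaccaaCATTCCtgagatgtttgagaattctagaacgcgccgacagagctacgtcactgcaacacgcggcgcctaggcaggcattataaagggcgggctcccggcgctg

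For the other matches only the core and its flanks are shown. Ankrd1 (minus strand) had a core 210 bases (chr19:36120037-36120066) and another 123 bases (chr19:36119950-36119979) before its start site, Amotl2 had one at 65 bases (chr9:102717727-102717756, plus strand), and the outermost core of Tead3 lay at 182 bases (chr17:28350970-28350999, minus strand). The Ankrd1 and Amotl2 cores lie within the annotated span of their own gene. The windows shown here in part, of Ankrd1, Amotl2 and Tead3, overlap annotated exons. A match describes the letters of the window and was not tested for binding.
Ankrd1, 210 bases: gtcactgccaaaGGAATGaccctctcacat
Ankrd1, 123 bases: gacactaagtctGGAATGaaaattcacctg
Amotl2: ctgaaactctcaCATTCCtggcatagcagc
Tead3: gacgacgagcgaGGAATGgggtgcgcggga

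In culture all 10 genes rose over freshly isolated Hepatocytes, apart from Tead3, whose day 3 difference was -0.05 after quantile normalization. On the log2(FPKM + 1) scale, the targets Ctgf, Ankrd1, Cyr61 and Amotl2 and the partner Tead1 had the largest differences at day 3. Yap1, Tead4 and Tead3 had the smallest. This order rests on the scale for genes near 0 in Hepatocytes. Mean Tead4 went from 0.0261 to 3.31 FPKM and mean Tead2 from 0.0245 to 27.2 FPKM, while mean Yap1 went from 13.9 to 73.2 FPKM. At day 3, 10 of 10 members were called higher, beside 53.9% of all genes tested, with a median of 4.89 for the members and 1.14 for all genes. At day 14, 10 of 10 were called higher beside 50.0%, with medians of 3.56 and 1.00. Since about 1 in 2 genes was called higher, the count by itself says little about the members. Tead1, Tead2, Tead4, Ctgf and Ankrd1 also passed the filter only through cultured libraries, which largely fixed their direction and bears on both medians. After quantile normalization 9 of 10 were called at each time. On recovered reads 8 of 10 were called at each time, with Yap1 and Tead3 short of 2-fold. The higher share of all called genes was 81.6% at day 3 and 79.4% at day 14, and 53.6% and 52.8% after quantile normalization. Every comparison with Hepatocytes shares the same 3 Hepatocyte libraries.

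**Figure D1:**
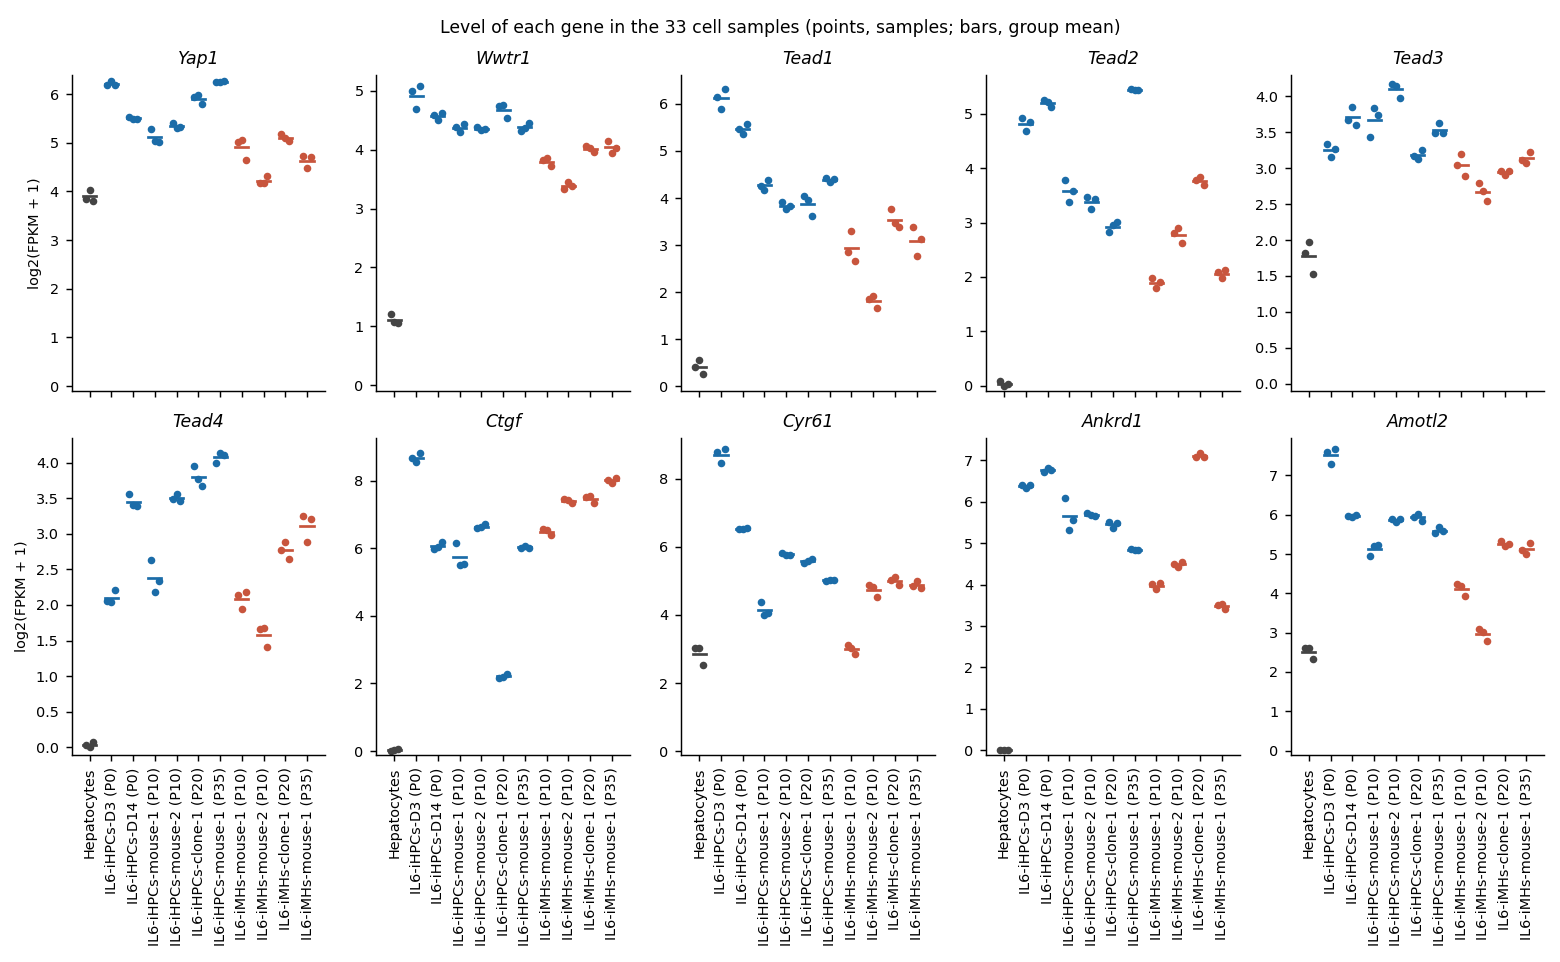
Level of the 10 genes in the 33 culture libraries, on a log2(FPKM + 1) axis. Points are libraries, bars are the mean of a group of 3, and colours mark Hepatocytes (grey), IL6-iHPCs (blue) and IL6-iMHs (red). Every IL6-iHPC and IL6-iMH library lies above the 3 Hepatocyte libraries for Yap1, Wwtr1, all 4 Tead genes, Ctgf, Ankrd1 and Amotl2, and Ctgf of IL6-iHPCs-clone-1 stands far under the other IL6-iHPCs.

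Yap1, the co-activator, was already present in Hepatocytes at 13.4, 15.3 and 13.0 FPKM. It stood at 71.5, 76.5 and 71.5 FPKM at day 3 and at 44.9, 43.7 and 44.1 FPKM at day 14. The groups did not overlap, and the difference from Hepatocytes was 2.32 (SE 0.09, adjusted p 9.17e-21, limma) at day 3 and 1.60 (SE 0.09, adjusted p 1.01e-16, limma) at day 14. On recovered reads it was 0.80 and 0.26, under 2-fold. Wwtr1, which encodes its paralogue TAZ, was much lower in Hepatocytes, at 1.31, 1.10 and 1.08 FPKM. It reached 30.9, 24.8 and 32.8 FPKM at day 3 and 23.0, 21.6 and 23.7 FPKM at day 14. It rose by 3.81 (SE 0.08, adjusted p 2.80e-27, limma) and 3.46 (SE 0.08, adjusted p 2.83e-26, limma), and no cultured library fell within the range of the Hepatocytes. Yap1 therefore made up 92.2% ± 1.09 (SD, n = 3) of the summed Yap1 and Wwtr1 level in Hepatocytes, 71.3% ± 3.67 at day 3 and 66.0% ± 0.957 at day 14. In the passaged IL6-iHPCs its share was 62.9% to 79.1%, and in the IL6-iMHs 60.6% to 69.2%.

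The TEAD genes changed in level and in composition. In Hepatocytes the 4 genes summed to 2.82 ± 0.616 FPKM and Tead3 made up 86.6% ± 0.794 of the sum. At day 3 the sum was 108 ± 12.6 FPKM, of which Tead1 made up 63.8% ± 2.23 and Tead2 25.2% ± 1.63, and at day 14 it was 101 ± 1.73 FPKM with shares of 42.8% and 35.4%. Tead1 was at 0.330, 0.471 and 0.195 FPKM in Hepatocytes (57 to 189 recovered reads per library) and at 70.3, 58.7 and 78.9 FPKM at day 3. It rose by 5.72 (SE 0.15, adjusted p 5.80e-25, limma). Tead2, the form known from embryonic tissue, was at 0.0564, 0 and 0.0170 FPKM in Hepatocytes, which is 8, 0 and 2 reads. It stood at 29.2, 24.7 and 27.8 FPKM at day 3 and 37.1, 36.2 and 34.0 FPKM at day 14, so the 2 times did not overlap with Hepatocytes. Its differences from Hepatocytes were 4.78 (SE 0.09) and 5.17 (SE 0.09). Tead4 followed later, from 4, 0 and 10 reads in the Hepatocyte libraries to 3.17, 3.10 and 3.65 FPKM at day 3 and 10.8, 9.59 and 9.48 FPKM at day 14. Tead3 moved least, from 2.52, 2.91 and 1.89 FPKM to 9.15, 7.91 and 8.64 FPKM at day 3. Its difference of 1.48 (SE 0.10) was 0.34 above the median of all genes, and it was -0.05 (adjusted p 0.658, limma) after quantile normalization and 0.20 (adjusted p 0.193, limma) on recovered reads.

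**Figure D2:**
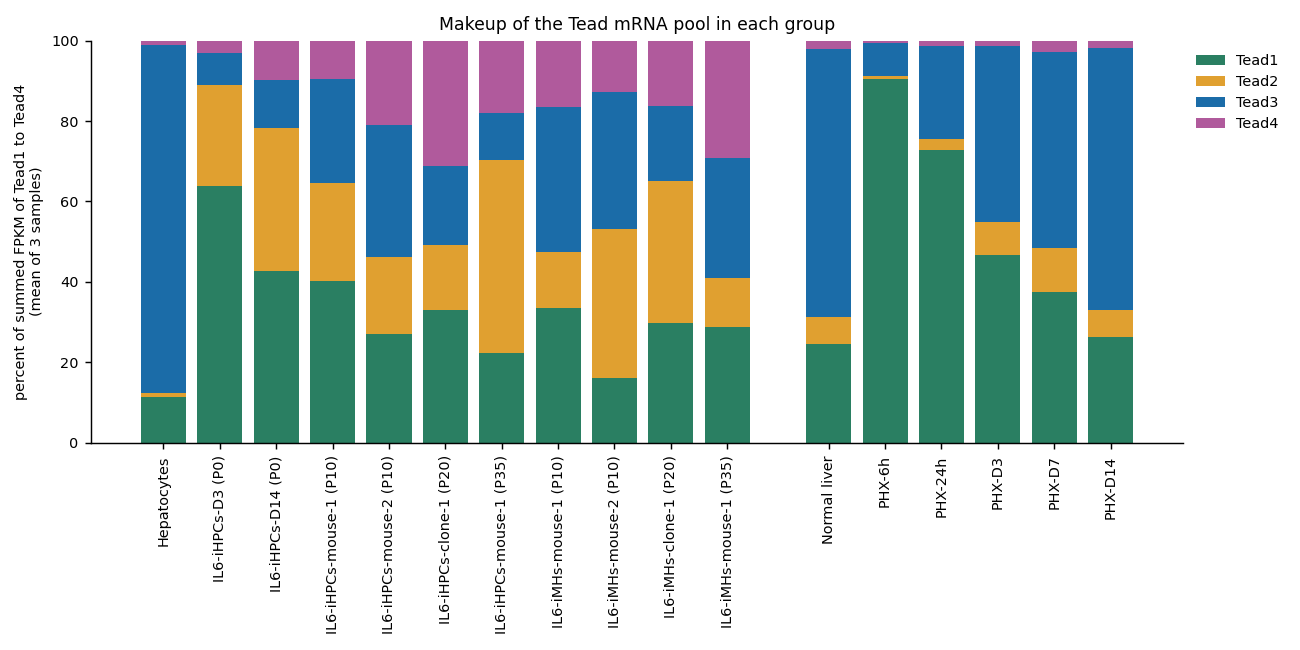
Share of each Tead gene in the summed FPKM of Tead1 to Tead4, as stacked bars of the mean percent over the 3 libraries of each of the 17 groups. Tead3 holds most of the sum in Hepatocytes, Normal liver and PHX-D14 (86.6%, 66.7% and 65.2%), and Tead1 holds most of it in IL6-iHPCs-D3, PHX-6h and PHX-24h (63.8%, 90.4% and 72.8%).

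The 4 targets passed from near silence or low levels to some of the highest values of the set. Ctgf, a secreted matricellular protein gene, was at 0.0123, 0.0215 and 0.0443 FPKM in Hepatocytes, which is 2, 4 and 6 reads. At day 3 it stood at 403, 370 and 450 FPKM and at day 14 at 61.4, 64.4 and 72.3 FPKM. It rose by 8.63 (SE 0.11, adjusted p 1.09e-32, limma) and 6.03 (SE 0.11, adjusted p 5.54e-29, limma), with no overlap between the 3 groups. Cyr61, its relative in the CCN family, was expressed in Hepatocytes at 7.18, 7.24 and 4.73 FPKM. It reached 438, 352 and 469 FPKM at day 3 and fell back to 91.5, 91.0 and 92.9 FPKM at day 14, still above Hepatocytes by 3.67 (SE 0.12, adjusted p 1.74e-22, limma). Ankrd1, an ankyrin-repeat protein gene best known from heart muscle, had 0 reads in all 3 Hepatocyte libraries. It was at 83.9, 79.6 and 83.8 FPKM at day 3 and 104, 111 and 108 FPKM at day 14. Against a floor of 3 reads per Hepatocyte library (0.0257 FPKM, which covers counting error only) it was at least 3207-fold higher at day 3 and at least 4188-fold higher at day 14. Amotl2, an angiomotin family gene whose protein binds YAP and holds it back, and which is itself a target, went from 5.14, 5.07 and 4.04 FPKM to 192, 156 and 205 FPKM at day 3. Its difference of 5.01 (SE 0.10, adjusted p 1.11e-27, limma) was 3.87 above the median of all genes.

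Between day 3 and day 14 the targets parted. Ctgf, Cyr61 and Amotl2 fell while Tead4 rose, and the other 6 genes did not pass the 2-fold limit. Ctgf fell by 2.61 (SE 0.11, adjusted p 7.74e-19, limma), Cyr61 fell by 2.17 (SE 0.12, adjusted p 8.63e-16, limma) and Amotl2 fell by 1.56 (SE 0.10, adjusted p 2.82e-14, limma). Tead4 rose by 1.34 (SE 0.10, adjusted p 2.74e-12, limma). Ankrd1 was 0.38 (SE 0.10) higher at day 14, under 2-fold, so it did not follow the other 3 targets down. The 3 falls of 10 members stand beside 5.05% of all genes called lower, and the 1 rise beside 5.12% called higher. The counts were 3 and 1 after quantile normalization and on recovered reads too. The median difference was -0.51 for the members and -0.16 for all genes.

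The passaged IL6-iHPCs kept levels above Hepatocytes. Over the mean of the 4 cultures, 10 of 10 members were called higher beside 48.1% of all genes, with a median of 3.37 for the members and 0.93 for all genes. Ankrd1 (5.41, SE 0.08), Ctgf (5.11, SE 0.08), Tead2 (3.80, SE 0.07) and Tead1 (3.68, SE 0.12) led. Without clone-1, 10 of 10 were still called and Ctgf was 6.09. After quantile normalization 9 were called, without Tead3 (0.63), and on recovered reads 8, without Tead3 (0.90) and Yap1 (0.53). The share of higher genes among all calls was 81.0%, and 54.5% after quantile normalization.

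The passaged cultures differed from each other. Ctgf was at 3.45, 3.62 and 3.87 FPKM in IL6-iHPCs-clone-1 and between 44.5 and 104 FPKM in the 9 libraries of the other cultures. Ordered by mean level, it ran from mouse-2 (P10) at 98.8 FPKM over mouse-1 (P35) at 64.0 and mouse-1 (P10) at 53.1 to clone-1 at 3.65, and only the 2 mouse-1 groups overlapped. Tead2 ran from mouse-1 (P35) at 42.6 ± 0.185 FPKM to clone-1 at 6.62 FPKM. The make-up of the TEAD sum differed too: Tead2 was 47.8% in mouse-1 (P35), Tead1 was 40.2% in mouse-1 (P10), Tead3 was 32.8% in mouse-2 (P10), and Tead4 was 31.3% in clone-1, more than in any other passaged IL6-iHPC culture. The sum itself was 89.2 FPKM in mouse-1 (P35) and 41.4 to 49.2 FPKM in the other 3. The highest Yap1 levels of any culture group were in mouse-1 (P35) (74.6, 74.7 and 76.5 FPKM), overlapping those of IL6-iHPCs-D3.

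The line from mouse-1 was sampled at 2 passages, which allows passage 35 to be set against passage 10. Yap1 went from 37.8, 31.7 and 31.4 FPKM to 74.6, 74.7 and 76.5 FPKM and rose by 1.15 (SE 0.09, adjusted p 7.40e-13, limma). Tead2 went from 12.8, 9.44 and 10.9 FPKM to 42.8, 42.6 and 42.4 FPKM and rose by 1.86 (SE 0.09, adjusted p 4.22e-18, limma). Tead4 went from 5.21, 3.56 and 4.04 FPKM to 15.0, 16.6 and 16.3 FPKM and rose by 1.70 (SE 0.10, adjusted p 4.04e-15, limma). In none of these 3 genes did the passages overlap. The other 7 members were not called: Tead3 was -0.14, Cyr61 0.88 and Ankrd1 -0.81, and the sign of Wwtr1 (0.01), Tead1 (0.12), Ctgf (0.30) and Amotl2 (0.46) turned after quantile normalization. The 3 calls of 10 stand beside 24.8% of all genes called higher, and none of 10 beside 8.94% called lower, so the count was near the background. The member median of 0.38 was also near that of all genes, 0.36. After quantile normalization and on recovered reads, Yap1 was under 2-fold (0.76 and 0.71) and Ankrd1 was called lower (-1.44 and -1.29). Genes called higher were 73.5% of all calls, and 51.4% after quantile normalization. Cell cycle genes moved with passage: 10 of 10 were called higher at passage 35, and their sum was 998 to 1041 FPKM against 58.5 to 68.4 FPKM. Their part in the Yap1, Tead2 and Tead4 differences was not tested.

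On maturation into IL6-iMHs, 4 of 10 members were called lower and Ctgf higher. Over the means of the 4 cultures, Ctgf rose by 2.19 (SE 0.05, adjusted p 1.89e-25, limma). Amotl2 fell by 1.26 (SE 0.05, adjusted p 2.59e-20, limma), Tead1 fell by 1.24 (SE 0.07, adjusted p 5.80e-16, limma), Tead2 fell by 1.21 (SE 0.04, adjusted p 2.12e-21, limma) and Tead4 fell by 1.06 (SE 0.05, adjusted p 8.05e-18, limma). Yap1 (-0.94), Cyr61 (-0.72), Tead3 (-0.67), Ankrd1 (-0.65) and Wwtr1 (-0.64) were under 2-fold. The 1 rise stands beside 6.68% of all genes called higher and the 4 falls beside 21.4% called lower. The median was -0.83 for the members and -0.40 for all genes. These falls depend on scaling: after quantile normalization Amotl2 alone was called lower, and on recovered reads no member was, while Ctgf was called higher under both (2.08 and 2.80). Higher genes were 23.8% of all calls, and 52.0% after quantile normalization. Without clone-1, 6 members were called: Ctgf was 1.17 and Tead2 -1.90, and Ankrd1 was called lower at -1.41 (adjusted p 7.36e-20, limma). All 10 cell cycle genes fell over the 4 cultures, with sums of 879 to 901 FPKM against 84.3 to 87.9 FPKM in clone-1 but 58.5 to 68.4 against 80.5 to 86.6 FPKM in mouse-1 (P10). Biliary and progenitor markers, with 2 of the 7 tested called lower over the 4 cultures, summed to 2715 to 11014 FPKM in the passaged IL6-iHPCs and 218 to 1420 FPKM in the IL6-iMHs. Hepatocyte markers, with 9 of 10 called higher, summed to 1885 to 9640 FPKM and 60607 to 83126 FPKM. The part of these 3 lists in the member differences was not tested.

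**Figure D3:**
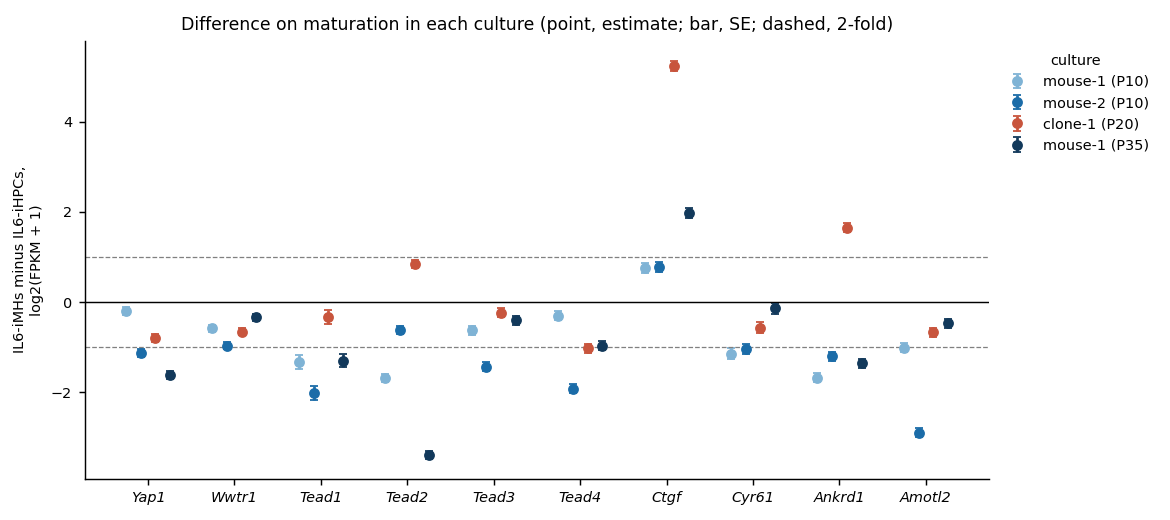
Difference of IL6-iMHs minus IL6-iHPCs for each gene in each of the 4 cultures, as limma estimate ± SE on the log2(FPKM + 1) scale, with dashed lines at 2-fold. Ctgf lies above 0 in all 4 cultures (0.76, 0.77, 1.98 and 5.25), while Ankrd1 and Tead2 lie above 0 in clone-1 (1.65 and 0.84) and below 0 in the other cultures, where Tead2 of mouse-2 (P10) turns to 0.04 after quantile normalization.

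Taken one culture at a time, the pattern was uneven. In mouse-1 (P10), 5 of 10 members fell and none rose, beside 25.0% of all genes called in either direction (1900 of 12328 lower and 1182 higher). In mouse-2 (P10), 7 fell and none rose, beside 39.9% (3529 lower and 1386 higher). In mouse-1 (P35), 4 fell and 1 rose, beside 45.3% (4330 lower and 1255 higher). In clone-1, 1 fell and 2 rose, beside 23.6% (2185 lower and 722 higher). In mouse-1 (P35) and clone-1 the number of members called in either direction was thus near the background. After quantile normalization the falls numbered 3, 6, 2 and 0 and the rises 0, 0, 1 and 3 in the same order, and on recovered reads 3, 4, 1 and 0 falls and 1, 1, 1 and 3 rises. Tead1 was called lower in 3 cultures (-1.33, -2.02 and -1.30), the last of which, mouse-1 (P35), was under 2-fold after quantile normalization (-0.63) and on recovered reads (-0.69). In clone-1 it was -0.33, and the sign turned under both other scalings. Amotl2 fell most in mouse-2 (P10), from 58.2, 55.0 and 58.3 FPKM to 7.48, 7.14 and 5.86 FPKM, a difference of -2.90 (SE 0.10). Tead2 fell most in mouse-1 (P35), from 42.8, 42.6 and 42.4 FPKM to 3.23, 2.94 and 3.36 FPKM, a difference of -3.39 (SE 0.09). Yap1 fell in mouse-2 (P10) by 1.13 and in mouse-1 (P35) by 1.62, where it dropped from the highest Yap1 level of the series to 25.3, 21.3 and 25.0 FPKM. On recovered reads its difference in these 2 cultures was -0.60 and -0.93, under 2-fold.

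Clone-1 stood apart from the other 3 cultures. Ctgf was at 183, 186 and 160 FPKM in IL6-iMHs-clone-1, against 3.45 to 3.87 FPKM before maturation, and rose by 5.25 (SE 0.11, adjusted p 1.66e-26, limma). Ankrd1 went from 44.2, 40.3 and 43.8 FPKM to 133, 143 and 133 FPKM and rose by 1.65 (SE 0.10, adjusted p 4.10e-15, limma), while it was called lower in mouse-1 (P10) (-1.68), mouse-2 (-1.20) and mouse-1 (P35) (-1.36). On recovered reads the falls in mouse-2 (-0.67) and mouse-1 (P35) (-0.72) were under 2-fold, as was that in mouse-1 (P35) after quantile normalization (-0.76). Tead2 went from 6.07, 6.77 and 7.01 FPKM to 12.8, 13.3 and 11.9 FPKM, a difference of 0.84 (SE 0.09), under 2-fold, which was called after quantile normalization (adjusted p 3.43e-12, limma, and past 2-fold) and on recovered reads (1.39, adjusted p 6.41e-13, limma). Tested as a difference between cultures, the change in clone-1 exceeded the mean change of mouse-1 (P10), mouse-1 (P35) and mouse-2 by 4.08 (SE 0.12, adjusted p 5.49e-22, limma) for Ctgf, 3.07 (SE 0.11, adjusted p 1.21e-19, limma) for Ankrd1, 2.74 (SE 0.10, adjusted p 5.18e-20, limma) for Tead2 and 1.22 (SE 0.17, adjusted p 1.71e-07, limma) for Tead1. These 4 of 10 stand beside 10.7% of all genes called higher, with medians of 0.68 and 0.02. The same number was called after quantile normalization and on recovered reads. This test was added after seeing the data, on technical repeats of a single clone. Its p-values are therefore no independent support for a difference. The Y-linked reads of the 2 clone-1 groups differ, as given above, so a change on maturation and a difference between 2 sources of cells cannot be told apart in this line.

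Against fresh Hepatocytes, the matured cells did not return to the starting levels. Over the 4 IL6-iMH cultures 9 of 10 members were called higher, beside 24.8% of all genes, with a median of 2.39 for the members and 0.46 for all genes. Ctgf led with 7.31 (SE 0.08, adjusted p 1.31e-33, limma), followed by Ankrd1 with 4.76 (SE 0.08, adjusted p 1.42e-29, limma). Without clone-1 Ankrd1 was 3.98 and the count stayed at 9. Ankrd1 levels were 137 FPKM in clone-1, 21.4 FPKM in mouse-2 (P10), and in mouse-1 14.7 FPKM at passage 10 and 10.1 FPKM at passage 35, which is at least 395-fold above the floor of the Hepatocytes in each. Yap1 was 0.82 (SE 0.07) higher, under 2-fold. After quantile normalization Cyr61 (0.85) and Tead3 (0.43) also fell short, which left 7, and on recovered reads the same number was called. Higher genes were 76.1% of all calls, and 54.0% after quantile normalization. In mouse-1 (P10), Cyr61 was at 7.59, 7.19 and 6.20 FPKM, overlapping the 7.18, 7.24 and 4.73 FPKM of Hepatocytes.

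Markers of other cell types give the frame for these culture values. Endothelial markers summed to 23.6 to 26.5 FPKM in Hepatocytes, 15.3 to 17.5 FPKM in IL6-iHPCs-D3 and at most 6.07 FPKM in the passaged IL6-iHPCs and IL6-iMHs, where Pecam1, Cdh5 and Kdr were under 0.1 FPKM. Stellate and fibroblast markers summed to at most 27.4 FPKM in any culture group, with at most 1 of 10 genes at 1 FPKM or more, and Des, Lrat and Lum were under 0.1 FPKM in every group. Macrophage markers summed to 17.1 to 19.3 FPKM in Hepatocytes and to as much as 241 FPKM in IL6-iHPCs-clone-1, with 2 of 10 genes at 1 FPKM or more there and Adgre1, Clec4f, Vsig4, Marco and Ptprc under 0.1 FPKM. Red blood cell markers were 105 to 121 FPKM in Hepatocytes and at most 1.03 FPKM in every other group. In IL6-iHPCs-D3 the whole stellate and fibroblast sum was 0.817 to 1.42 FPKM. The part of other cell types in the member levels was not tested. Biliary and progenitor markers rose with the members, from 6.25 to 9.16 FPKM in Hepatocytes to 375 to 545 FPKM in IL6-iHPCs-D3 and 4098 to 4523 FPKM in IL6-iHPCs-D14, and their part was not tested.

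The other genes of the pathway were described from a list of 24 Hippo regulators, of which 22 were tested in culture. At day 3 all 22 were called higher (17 after quantile normalization and 17 on recovered reads), with a list median of 2.98, beside 53.9% and a median of 1.14 for all genes. At day 14, 21 were (18 and 17), beside 50.0%, and in the passaged IL6-iHPCs 22 (15 and 16), beside 48.1% and also 22 without clone-1. Map4k4, a kinase that acts on Lats, rose by 5.37 (SE 0.07) at day 3, and Taok1, a kinase upstream of Mst, rose by 4.57 (SE 0.13). At day 14 Ptpn14, a phosphatase that binds YAP, rose by 4.90 (SE 0.10). In IL6-iMHs against passaged IL6-iHPCs, 11 of 22 regulators were called lower and none higher, with 5 lower after quantile normalization, 7 on recovered reads and 15 without clone-1. The share of all genes called lower was 21.4%, and the medians were -1.03 for the list and -0.40 for all genes. Taok1 (-2.29, SE 0.06) and Sav1, the Mst scaffold (-1.75, SE 0.04), moved most. With passage, 7 regulators were called higher and 1 lower, but 2 higher and 4 lower after quantile normalization and on recovered reads. All genes stood at 24.8% higher and 8.94% lower, so the count was near the background. Amotl1, the relative of Amotl2, was 2.71 (SE 0.07) and Vgll3, a TEAD cofactor, -1.77 (SE 0.12). From day 3 to day 14 Amotl1 alone was called (1.53, SE 0.07). In IL6-iMHs against Hepatocytes 15 were higher (9 and 10, and 14 without clone-1) beside 24.8%, led by Map4k4 (2.91) and Amot (2.81). Between clone-1 and the other cultures the change differed in 8 upward and 1 downward (7 and 0, then 9 and 2), beside 10.7% and 13.4% of all genes, among them Amot (2.30) and Nf2, the gene of the upstream regulator merlin (-1.01).

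The other list held 26 other genes known as YAP and TAZ targets, of which 23 were tested in culture. At day 3, 20 were called higher and none lower (17 and 1 after quantile normalization, 20 and 1 on recovered reads), with a list median of 3.12, beside 53.9% and 1.14 for all genes. Anxa3, an annexin gene, rose by 7.76 (SE 0.10) and Fjx1, a Golgi kinase homologue, by 6.00 (SE 0.09). At day 14, 21 were higher (17 and 20) beside 50.0%, led by Igfbp3 (7.79, SE 0.09), and in the passaged IL6-iHPCs 20 (14 and 19, and 19 without clone-1) beside 48.1%, led by Anxa3 (7.62) and Myof (6.84). In IL6-iMHs against Hepatocytes 14 were higher (12 and 15, and 12 without clone-1) beside 24.8%, among them Anxa3 (6.37). From day 3 to day 14, 6 were higher and 5 lower under all 3 scalings, beside 5.12% and 5.05% of all genes. The receptor gene Axl rose by 2.53 (SE 0.18). On maturation 12 fell and 1 rose (6 and 2 after quantile normalization, 8 and 2 on recovered reads, 15 and 1 without clone-1), beside 21.4% of all genes lower and 6.68% higher. Birc5, the gene of the mitotic protein survivin, fell by 2.25 (SE 0.05). With passage 10 rose and 1 fell (7 and 1, then 8 and 3), beside 24.8% and 8.94%, with Axl at 4.96, Birc5 at 4.63 and the stress gene Gadd45a at -2.80. In the clone-1 difference 7 were higher and 3 lower (6 and 3, then 8 and 3), beside 10.7% and 13.4%, with Igfbp3 at 5.54, Tgfb2 at 2.87 and Nt5e at -2.25. Lats2 and Ptpn14 stand in both lists.

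In regenerating liver Yap1 itself did not change by the limit used. Its 18 liver values ran from 17.5 to 27.1 FPKM, with Normal liver at 23.4, 17.5 and 18.5 FPKM and PHX-6h at 25.3, 26.2 and 23.9 FPKM. The largest difference was 0.34 (SE 0.13, adjusted p 0.035, limma) at 6 h, when the median of all genes was -0.28. All neighbouring groups overlapped in the order of Yap1 levels. Whole tissue was measured, so fewer cells of a type and less RNA per cell cannot be told apart in any of these values. All 5 liver comparisons share the 3 Normal liver libraries.

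**Figure D4:**
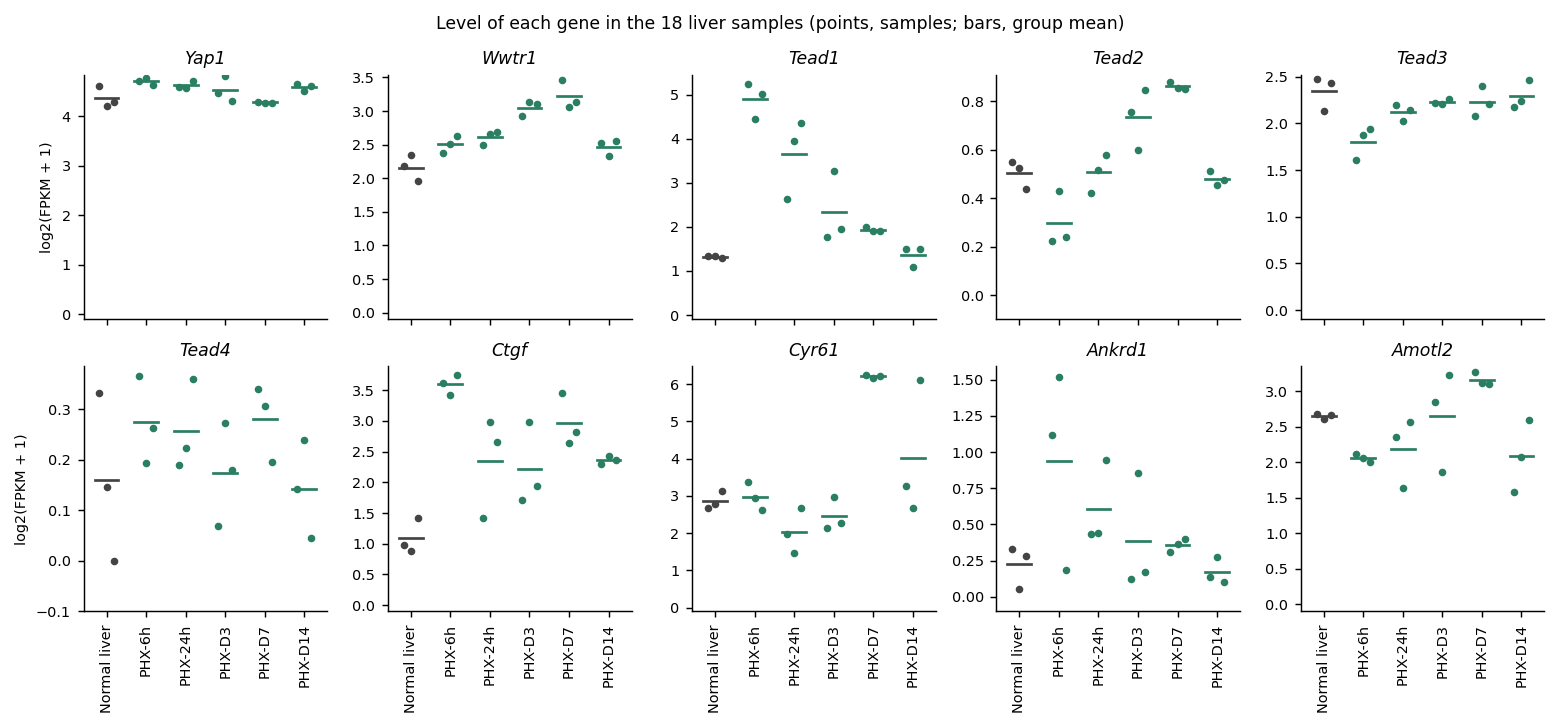
Level of the 10 genes in the 18 liver libraries, on a log2(FPKM + 1) axis, by time after hepatectomy. Points are libraries and bars are group means. Tead1 is highest at 6 h (20.8 to 37.1 FPKM), Cyr61 is near 70 FPKM in the 3 PHX-D7 libraries and in 1 PHX-D14 library (67.6 FPKM), and Tead2, Tead4 and Ankrd1 stay at or under 1.86 FPKM.

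Tead1 was called higher at 6 h and 24 h. It was at 1.51, 1.52 and 1.46 FPKM in Normal liver, 37.1, 20.8 and 31.6 FPKM at 6 h and 5.24, 14.5 and 19.4 FPKM at 24 h. It rose by 3.59 (SE 0.39, adjusted p 5.94e-06, limma) at 6 h and 2.33 (SE 0.39, adjusted p 0.000546, limma) at 24 h, and neither group overlapped Normal liver. At day 3 it was at 2.42, 8.60 and 2.89 FPKM, where 8.60 FPKM is replicate 2, and the difference of 1.01 was not called (adjusted p 0.0629, limma). It was 0.55 (adjusted p 0.269, limma) without replicate 2, but was called without replicate 1 (1.29, adjusted p 0.0327, limma) or replicate 3 (1.20, adjusted p 0.0474, limma). It was 2.75 to 2.97 FPKM at day 7 and 1.14 to 1.81 FPKM at day 14, where it overlapped Normal liver. Tead3, the main form in Normal liver at 4.57, 3.39 and 4.39 FPKM, was at 2.04, 2.66 and 2.83 FPKM at 6 h. Its difference of -0.54 (SE 0.13, adjusted p 0.00226, limma) was under 2-fold and was -0.26 after quantile normalization. Together these values moved the TEAD sum from 6.16 FPKM with 66.7% Tead3 to 32.8 FPKM with 90.4% ± 3.46 Tead1 at 6 h. The Tead1 share then went from 72.8% ± 14.3 at 24 h over 46.7% ± 17.2 at day 3 and 37.5% ± 3.35 at day 7 to 26.3% ± 4.87 at day 14, beside 24.5% ± 2.93 in Normal liver. Tead2 and Tead4 stayed at or under 0.838 and 0.289 FPKM in all 18 libraries, and were not tested.

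Wwtr1 was called higher at day 7. It was at 3.55, 4.06 and 2.88 FPKM in Normal liver, 6.58, 7.77 and 7.58 FPKM at day 3 and 10.1, 7.37 and 7.77 FPKM at day 7. Both groups lay above every Normal liver library. The difference was 0.89 (SE 0.13, adjusted p 0.000384, limma) at day 3, under 2-fold, and 1.06 (SE 0.13, adjusted p 2.10e-05, limma) at day 7. The day 3 value passed 2-fold on recovered reads (1.07, adjusted p 0.000325, limma) and with a pseudocount of 0.1 (1.05, adjusted p 0.000438, limma). The day 7 value was 0.84 after quantile normalization, and 0.96 without Normal liver replicate 3 and 0.94 without PHX-D7 replicate 1, each under 2-fold. The share of Yap1 in the sum with Wwtr1 was 84.9% ± 3.16 in Normal liver, 75.1% ± 3.40 at day 3, 68.8% ± 3.48 at day 7 and 83.6% ± 0.858 at day 14.

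Ctgf was called higher at every time after hepatectomy, although 3 of the 5 calls were lost in some of the fits without 1 library. It was at 0.970, 0.836 and 1.68 FPKM in Normal liver and 11.3, 9.68 and 12.4 FPKM at 6 h, and rose by 2.50 (SE 0.36, adjusted p 5.21e-05, limma). At day 7 it was at 9.92, 5.25 and 6.07 FPKM and had risen by 1.88 (SE 0.36, adjusted p 0.001, limma). At 24 h (1.69, 6.87 and 5.34 FPKM), day 3 (2.29, 6.88 and 2.83 FPKM) and day 14 (3.90, 4.35 and 4.14 FPKM) it was lower. At 24 h the difference of 1.26 (adjusted p 0.0144, limma) was 1.15 without Normal liver replicate 2 (0.0502), 0.95 without PHX-24h replicate 2 (0.0786) and 1.11 without PHX-24h replicate 3 (0.0632). At day 3 the difference of 1.12 (adjusted p 0.0298, limma) became 0.73 (adjusted p 0.123, limma) without replicate 2, and lost its call without Normal liver replicate 1 (0.0737) or 2 (0.0962). The day 3 call was also lost after quantile normalization (adjusted p 0.0539, limma), on recovered reads (0.0549) and without a filter (0.0524). At day 14 the difference of 1.27 (adjusted p 0.0243, limma) lost its call in 5 of the 6 fits without 1 library, and ran from 1.16 to 1.43 over the 6.

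Cyr61 followed another course than Ctgf. It was at 5.33, 5.85 and 7.69 FPKM in Normal liver, 9.34, 6.62 and 5.10 FPKM at 6 h and 2.96, 1.74 and 5.36 FPKM at 24 h. At day 7 all 3 libraries were high, at 74.3, 70.7 and 74.0 FPKM, a rise of 3.36 (SE 0.60, adjusted p 0.0006, limma). At day 14 it was at 8.68, 5.45 and 67.6 FPKM, so that 1 library stood at the day 7 level and the difference of 1.17 (SE 0.60, adjusted p 0.209, limma) was not called. At 6 h, when Ctgf was highest, Cyr61 differed by 0.12 (SE 0.60). Amotl2 was not called at any time, with group means of 5.29 FPKM in Normal liver, 3.18 at 6 h, 3.73 at 24 h, 5.74 at day 3, 7.98 at day 7 and 3.42 at day 14. Its PHX-D7 libraries (7.63 to 8.63 FPKM) lay above and its PHX-6h libraries (3.03 to 3.32 FPKM) below those of Normal liver (5.11 to 5.42 FPKM). Ankrd1, at 27.7 to 108 FPKM in the IL6-iHPC groups, was at 0.0406 to 1.86 FPKM in liver. The highest values were 1.86 and 1.17 FPKM, both at 6 h, beside 0.135 FPKM in the other library of that time.

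The members called higher numbered 2 of the 7 tested at 6 h (background 4.78%), 2 at 24 h (3.74%), 1 at day 3 (3.33%), 3 at day 7 (7.81%) and 1 at day 14 (0.981%). No member was called lower by limma, after quantile normalization or on recovered reads. At 6 h, where 11.5% of all genes were, Tead3 had an adjusted p under the threshold at less than 2-fold. Member medians were 0.34, 0.26, 0.16, 0.62 and 0.22, and those of all genes -0.28, -0.02, 0.01, 0.13 and -0.08. Without PHX-D3 replicate 2 the day 3 count was 0. After quantile normalization it was 2, 2, 0, 2 and 1. Among all genes, the higher share of calls moved from 29.3% to 52.9% at 6 h, from 88.4% to 72.4% at day 7 and from 32.9% to 47.6% at day 14 with quantile normalization.

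Markers of other liver cells moved at the same times. At day 7, macrophage markers summed to 962 to 1387 FPKM against 180 to 274 FPKM in Normal liver, with 9 of 10 called higher, and endothelial markers to 220 to 333 against 158 to 162 FPKM, with 4 of 10 called higher. Stellate and fibroblast markers were 115 to 191 against 79.8 to 106 FPKM, with 2 of 9 called higher, and red blood cell markers 216 to 282 against 86.2 to 142 FPKM. Their part in the day 7 rise of Cyr61, Ctgf and Wwtr1 was not tested. At 6 h, when Tead1 and Ctgf rose, endothelial markers were 94.1 to 107 FPKM, below Normal liver, stellate and fibroblast markers were 101 to 123 FPKM against 79.8 to 106 FPKM and macrophage markers 170 to 282 FPKM, with 6 of 10 called lower. Their part in the 6 h rises was not tested. At 24 h, when both genes were called again, stellate and fibroblast markers were 125 to 183 FPKM, with 1 of 9 called higher, and hepatocyte markers were 33517 to 38183 against 58008 to 62241 FPKM, with 2 of 10 called lower. Endothelial markers were 102 to 116 FPKM. Their part in the 24 h rises was not tested. PHX-D3 replicate 2, the library with the highest Tead1 and Ctgf of its group, had macrophage markers at 781 FPKM (212 and 151 FPKM in the others), stellate and fibroblast markers at 250 FPKM (96.4 and 110 FPKM) and biliary and progenitor markers at 153 FPKM (54.6 and 35.5 FPKM). At day 14 macrophage markers were 122 to 173 FPKM, and Ctgf remained at 3.90 to 4.35 FPKM.

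Of the Hippo regulators, 20 were tested in liver and few were called. At 6 h 1 was higher (4.78% of all genes), Sav1 (1.18, SE 0.20, adjusted p 0.000234, limma), with 4 higher after quantile normalization and 4 higher and 1 lower on recovered reads. At 24 h and at day 14 none was called by limma, with 9 and 7 at an unadjusted p under 0.05, 0 after quantile normalization and 1 and 3 on recovered reads. At day 3 Map4k4 (1.35, SE 0.27) and Wwc2 (1.01, SE 0.21) rose (3.33% of all genes), 2 also without replicate 2, and at day 7 Wwc2 alone (1.01, SE 0.21) beside 7.81% of all genes, which was lost after quantile normalization. The list medians were -0.04, 0.28, 0.42, 0.43 and 0.14 in order of time. Of the other targets 17 were tested. At 6 h 3 rose and 2 fell (3 and 1 after quantile normalization), beside 4.78% and 11.5% of all genes, so the falls were near the background. Tagln, a smooth muscle actin-binding gene, rose by 1.91 (SE 0.29) and Nuak2, a kinase gene, fell by 1.62 (SE 0.33). At 24 h 3 rose (1 higher and 1 lower on recovered reads) beside 3.74%, with Tagln at 2.17. At day 3 1 rose beside 3.33%, Birc5, from 0.899 to 1.13 FPKM in Normal liver to 1.58 to 8.31 FPKM. At day 7, 5 rose (2 after quantile normalization) beside 7.81%, with Axl at 1.97 (SE 0.20) and Tagln at 1.71, and at day 14 3 rose beside 0.981%, with Gadd45a at 2.28 (SE 0.54). The list medians were -0.13, 0.10, 0.49, 0.86 and 0.09.

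Several genes had group means that ran closely with those of a member. Over the 11 culture groups, on the log2(FPKM + 1) scale, the closest to Yap1 was E2f3, a cell cycle transcription factor (r = 0.992), to Wwtr1 Tprn (0.984), to Tead1 Vezf1 (0.991), to Tead2 Dnajc27 (0.973), to Tead3 Pacs1 (0.980) and to Tead4 Anxa11 (0.983). The targets had Tbc1d16 (Ctgf, 0.937), Rnf31 (Cyr61, 0.949), Lgmn (Ankrd1, 0.966) and Zfp263 (Amotl2, 0.983) beside them. Over the 6 liver groups, the genes nearest to Ctgf were Cebpd (0.983), Sik1 (0.982) and Nfil3 (0.980), early response genes, and the nearest to Wwtr1 was Fstl1, a secreted glycoprotein gene (0.994). Gmppb was nearest to Tead1 (0.994), Ddhd2 to Yap1 (0.995), Paqr7 to Tead3 (0.999), Cd3e, a T cell gene, to Cyr61 (0.997) and Gmip to Amotl2 (0.991). With 11 and 6 points taken from the same libraries, and the highest of all tested genes chosen, these values describe the tables and carry no test.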

How the data were processed

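Gene expression was measured by polyA RNA sequencing in 33 culture and 18 liver libraries, 3 per group. The authors deposited 1 FPKM table for each set, and the submitters' processing notes name TopHat 1.4.1, Cufflinks 1.3.0 and mm10. The unit was read from the values, since low values were whole multiples of 1 read for 99.99% of genes (within 0.05 of a whole number), which also gave the reads per library. How strand was used is not given in the sources used here. Columns were matched to samples by name, and rows with a repeated symbol (2 per table) were averaged. All groups of a table were fitted together with limma 3.58.1 (R 4.3.3, trend) on log2(FPKM + 1), and p-values were adjusted by Benjamini-Hochberg across every tested gene. Scripts were tested on simulated data. The fits were repeated with quantile normalization, a filter of 5 FPKM or none, a pseudocount of 0.1, limma voom on recovered reads, a replicate block, leaving out each library, and leaving out clone-1. The difference between clone-1 and the other cultures was added after seeing the data. Motifs and overlaps were read from RefSeq (GRCm38.p6) promoters and the GENCODE annotation of GRCm38. Figures were drawn with matplotlib 3.10.9.

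The members and gene lists were chosen with earlier results of these data known. A list gene could be named where it was among the 2 called genes with the greatest increase or the 2 with the greatest decrease of a comparison, and for likeness the 3 genes with the highest Pearson r of group means. Further day 7 samples with and without IL6 were not analysed here, as no member was among the rows of the table used. 1 gene of the target list enters its counts and medians and is not reported here by name.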

Additional observations from a re-analysis of the deposited data

Results flagged for a closer look

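The change from IL6-iHPCs to IL6-iMHs was compared between clone-1 and the mean of the other 3 cultures, 2 of them mouse-1 at passages 10 and 35. By a limma test of the difference itself, 4 of the 10 genes were called higher. Of all genes tested, 10.7% were called higher and 13.4% lower. The excess in clone-1 was 4.08 for Ctgf, 3.07 for Ankrd1, 2.74 for Tead2 and 1.22 for Tead1 on the log2(FPKM + 1) scale, each past 2-fold. It was 0.79 for Amotl2 and 0.58 for Tead3, under 2-fold, though with an adjusted p under 0.05. The share of all genes that pass on adjusted p alone was not counted. In Yap1, Wwtr1, Tead4 and Cyr61 the adjusted p was not under 0.05, with differences of 0.18, -0.03, 0.03 and 0.21. Each of these values rests on 3 libraries labelled clone-1 in each state, whose Y-linked reads differ between the states (6575 to 9095 and 0). The test was added after seeing the data and is no independent support for a difference.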

How the results depend on the processing

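Of the 151 results for single genes, 147 kept their direction and side of the threshold with a pseudocount of 0.1, 150 without a filter, 120 after quantile normalization and 112 on recovered reads. After quantile normalization the sign turned for Tead3 at day 3 of culture (-0.050), for Amotl2 (-0.016), Ctgf (-0.20), Tead1 (-0.39) and Wwtr1 (-0.50) from passage 10 to 35, and for Tead3 at PHX-D14 (0.065). On maturation it turned for Tead4 in mouse-1 (P10) (0.043), Tead2 in mouse-2 (0.035), Tead1 (0.14) and Tead3 (0.20) in clone-1, and Cyr61 (0.33), Tead3 (0.29) and Wwtr1 (0.26) in mouse-1 (P35). On recovered reads it turned for Ctgf (-0.16), Tead1 (-0.33) and Wwtr1 (-0.46) from passage 10 to 35, for Tead3 at PHX-D14 (0.030), and on maturation for Yap1 in mouse-1 (P10) (0.10), Tead1 (0.087) and Tead3 (0.17) in clone-1, and Amotl2 (0.25), Cyr61 (0.58), Tead3 (0.29) and Wwtr1 (0.37) in mouse-1 (P35). In IL6-iMHs against IL6-iHPCs, members called went from 5 to 2 after quantile normalization and 1 on recovered reads, and genes called from 3459 to 2281 after quantile normalization. The causes were not tested.

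A pseudocount of 0.1 raised the genes called in liver to 2921 at 6 h (from 1810), 1412 at 24 h (878), 1069 at day 3 (647), 1519 at day 7 (982) and 777 at day 14 (331). Recovered reads gave 1382, 1090 and 675 at 24 h, day 3 and day 14, and a filter of 5 FPKM, with fewer genes tested, 625 at day 7. Members called at PHX-D3 were 3 with a pseudocount of 0.1, 0 without a filter and 0 after quantile normalization.

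Leaving out 1 library at a time gave 1 to 2 members called at 24 h, 0 to 2 at day 3 and 0 to 1 at day 14, and 462 to 1030 genes called at day 3, the highest without PHX-D3 replicate 3. Signs that turned were those of differences near 0: Wwtr1 from passage 10 to 35 (-0.027 to 0.038), Cyr61 at 6 h (-0.083 to 0.30), Amotl2 at day 3 (-0.29 to 0.39), Yap1 at day 7 (-0.17 to 0.033), and Tead1 (-0.027 to 0.17) and Tead3 (-0.16 to 0.007) at day 14.

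Replicate numbers did not pair the samples: over same-numbered samples the mean correlation of deviations was -0.01 in culture (33 of 165 pairs over 0.1) and -0.03 in liver (7 of 45). With the replicate block 10 members and 8135 genes were called at day 3 of culture, and all 151 results kept their call. The planned comparison of day 7 cultures with and without IL6 was not run.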
